A study of Mus musculus with 4 samples.

Results

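CD4 and CD8 T cells taken from the spleen after allogeneic bone marrow transplant were compared with each other, using the 2 later libraries of the 4 in the study. The libraries were chosen by their labels, and 9937 of the 21705 genes listed were measured, which here means a mean of at least 73 over the 4 libraries. The other 2 libraries, CD4 and CD8 T cells on the day of transplant, give the same ratio in cells that had not been in a recipient. All cells are labelled strain C57bl/6 and splenic, and each library came from 5 mice pooled before flow sorting, so a library holds no spread between animals. Sampling of the later cells is given as day 12 by their titles but as day 14 by the time point field, and only the earlier titles carry the word Donor. The strain and conditioning of the recipients, the means of telling donor from host T cells and any further sort marker are not stated in the labels. The protocols and the cell type field say T cells, but the source field says innate lymphoid cells. RNA was extracted with an RNeasy mini kit and made into libraries by the TruSeq mRNA protocol.

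CD4 T cells recognise peptides on MHC class II and mainly help other cells through cytokines and contact ligands such as CD40 ligand. CD8 T cells recognise peptides on MHC class I and kill target cells with perforin and granzymes. In the thymus the transcription factor encoded by Zbtb7b holds cells in the CD4 lineage, and Runx3 sets the CD8 lineage and silences Cd4. After allogeneic transplant both kinds of donor T cell can be activated by host antigens and contribute to graft-versus-host disease.

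The normalised values are reads estimated for each gene and brought to an upper quartile, over genes above 0, of about 1000 in every library. They are not divided by gene length, so a value is compared between libraries and not between genes. Depth was 16130847 estimated reads in the CD4 and 9873854 in the CD8 library after transplant, and 23633537 and 17972475 at transplant. Between 13726 and 14749 genes were above 0 in a library. A log2 ratio is CD4 over CD8 after adding 14.7 to each value, which understates the ratio of low genes, and a plain ratio has no such addition. With 1 library a group there was no test and no replicate error: each interval is a 95% exact binomial interval on estimated reads that covers counting error only, and a gene is called higher when the log2 ratio was at least 1 either way. A difference between bulk samples may reflect fewer cells of a type or less RNA per cell, which cannot be told apart.

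After transplant the CD4 and CD8 libraries were close for most genes. The genes that set them apart included helper ligands and cytokines on the CD4 side and killing genes on the CD8 side, beside many genes of other roles. Of 9937 genes, 240 (2.42%) were at least 2-fold higher in CD4 cells and 95 (0.956%) at least 2-fold higher in CD8 cells. At 4-fold the counts were 42 (0.423%) and 24 (0.242%), and for 151 (1.52%) and 74 (0.745%) the whole counting interval was beyond 2-fold. The median log2 ratio over all genes was 0.03. At transplant the same rule called more genes, 489 (4.92%) higher in CD4 and 147 (1.48%) higher in CD8 cells. The gene just inside the minimum level was Bola1, with a mean of 73.1, and the gene just outside was A730008H23Rik, with a mean of 72.9.

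**Figure D1:**
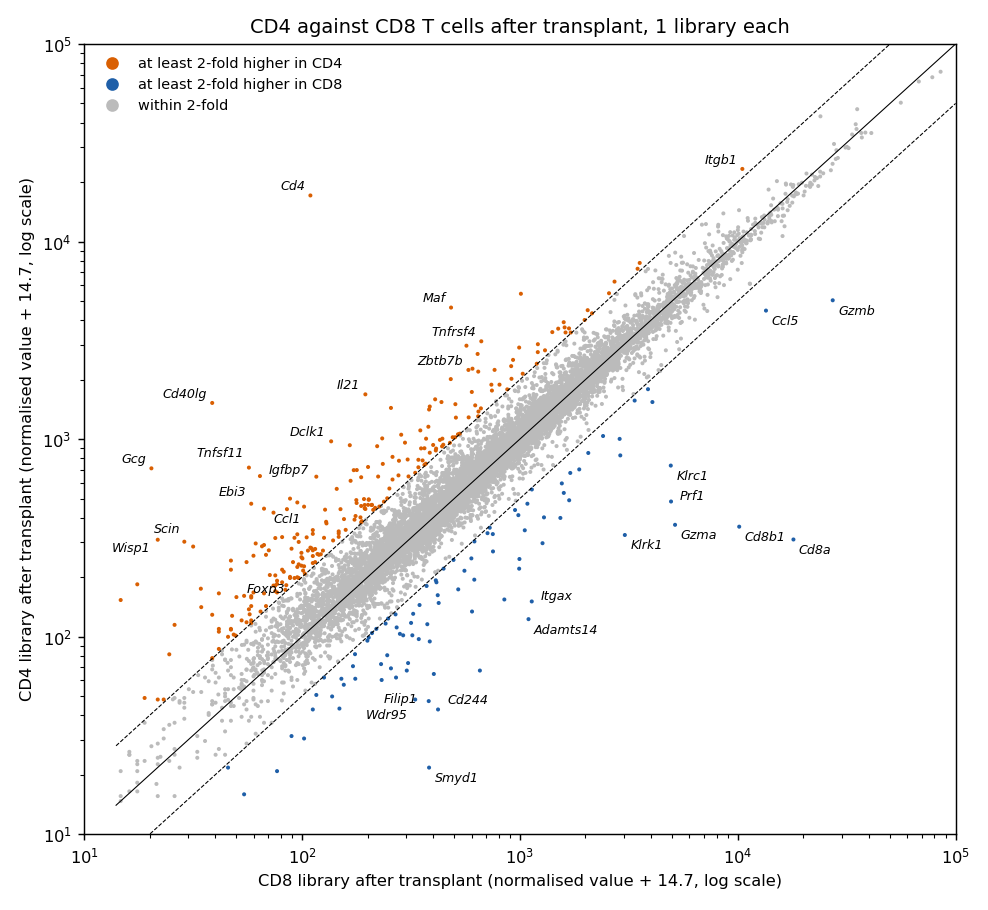
Each point is 1 of 9937 genes, with its value plus 14.7 in the CD8 library (x axis, log scale) and the CD4 library (y axis, log scale) after transplant. Solid and dashed lines mark equality and 2-fold, and 240 genes lie above and 95 below the dashed lines.

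The genes that define the sort matched the labels in both libraries. Cd4, the coreceptor for MHC class II, stood at 17092 in CD4 and 94.5 in CD8 cells after transplant, and at 15134 and 66.1 at transplant. Cd8a, a chain of the coreceptor for MHC class I, stood at 295 in CD4 and 17999 in CD8 cells, and at 177 and 21107 at transplant. Its partner chain Cd8b1 stood at 345 and 10139.6, and at 435 and 22739 at transplant. The library of the other lineage thus held 0.553% of the Cd4 value, 1.64% of the Cd8a value and 3.41% of the Cd8b1 value, against 0.437, 0.837 and 1.91% at transplant. Cd3e, part of the T cell receptor complex in both lineages, stood at 4272 in CD4 and 4807 in CD8 cells, which goes with the cell type field and not with the source field.

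The factors of lineage choice separated the libraries unevenly. Zbtb7b stood at 2223 in CD4 and 566 in CD8 cells after transplant, a plain ratio of 3.93 (3.54 to 4.38), and at 4802 and 99.1 at transplant. The log2 ratio of Zbtb7b was thus 1.95 after and 5.40 at transplant, lower by both a smaller CD4 and a larger CD8 value. Runx3 stood at 2004 in CD4 and 2444 in CD8 cells, a log2 ratio of -0.28, and was within 2-fold at transplant as well, at -0.31. Of 32 measured lineage transcription factors, Maf and Zbtb7b were higher in CD4 cells and Zbtb32 and Eomes in CD8 cells. Shares over all genes were 2.42% and 0.956%. Eomes, a T-box factor of cytotoxic and memory CD8 cells, stood at 687 in CD4 and 1858 in CD8 cells. Its relative Tbx21, the T-bet gene that drives Ifng, stood at 2025 and 2351, a log2 ratio of -0.21.

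CD4 cells after transplant were marked by a broad set of ligands for other cells. Of 30 secreted and surface-ligand cytokines 18 were measured. Against 2.42% and 0.956% of all genes, 12 of these 18 were higher in CD4 cells and 0 in CD8 cells. Their median log2 ratio was 1.47 against 0.03 over all genes, and at transplant the counts were 8 and 0. Il21, Ebi3, Il10 and Csf2 reached the minimum level only through the CD4 library after transplant, so these counts and their median are partly tied to the filter. Further members of this list and of the others could likewise pass through the library in which they were high. Cd40lg, the ligand that activates B cells and dendritic cells, stood at 1509 in CD4 and 24.0 in CD8 cells after transplant and at 1595 and 9.91 at transplant. The plain ratio after transplant was 62.9 (39.2 to 108), and the CD4 level was close at both times. Tnfsf11, the RANK ligand gene, stood at 702 in CD4 and 42.3 in CD8 cells, against 219 and 15.7 at transplant, a ratio of 16.6 (11.5 to 24.8) after transplant. Tnfsf8, the CD30 ligand gene, was within 2-fold at transplant, at 922 in CD4 and 959 in CD8 cells. After transplant Tnfsf8 stood at 2256 and 591.

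Several other cytokine genes on the CD4 side had been near 0 in CD8 cells at transplant. Il21, a cytokine that helps B cells and sustains CD8 cells, stood at 24.6 in CD4 and 0.826 in CD8 cells at transplant. After transplant Il21 reached 1669 in CD4 and 181 in CD8 cells, a ratio of 9.25 (7.73 to 11.1), so it was well above its earlier level in both. Ebi3, which encodes a subunit shared by cytokines of the interleukin 12 family, stood at 456 and 43.7 after and 60.4 and 3.30 at transplant. Csf2, the GM-CSF gene, stood at 281 in CD4 and 46.5 in CD8 cells after transplant, and at 0 and 2.48 at transplant. Il10, an inhibitory cytokine, stood at 331 and 97.3 after and 5.31 and 0 at transplant. Lta stood at 144 and 35.3, and its neighbour Tnf at 365 and 172, both inflammatory members of the TNF family.

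Ifng behaved differently from these. The gene for interferon gamma stood at 2072 in CD4 and 2039 in CD8 cells after transplant, a ratio of 1.02 (0.951 to 1.09), and at 61.1 and 24.0 at transplant. Counting error thus allows a difference of at most 1.09-fold between these 2 libraries. Il2, the T cell growth factor, had a mean below the minimum level. Il2 was at 37.7 in CD4 cells and at 0 in CD8 cells after transplant, at least 8.91-fold higher in CD4 cells when the CD8 library is set to a floor of 3 reads. Il17a was at 0 in all 4 libraries.

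The helper subset lists differed in how they stood between the lineages, and the Th1 list did not lean to the CD4 side. Of the measured members, 13 of 16 follicular helper and 8 of 8 type 2 helper genes also stand in other lists. So do 6 of 7 Th17, 13 of 13 Th1 and 16 of 19 regulatory T cell genes. Counts of different lists are thus not separate results, and Maf and Il21 are counted in several. Over all genes 2.42% were higher in CD4 and 0.956% in CD8 cells, so 0 on the CD8 side is near the share. Of 16 measured follicular helper genes, 10 were higher in CD4 cells and 0 in CD8 cells (median log2 ratio 1.25), against 8 and 0 at transplant. Maf, a factor of follicular helper, type 2 helper and interleukin 10 producing cells, stood at 4616 in CD4 and 468 in CD8 cells after transplant, a ratio of 9.86 (8.82 to 11), and at 795 and 24.0 at transplant. Cxcr5, the receptor for entry into B cell follicles, stood at 424 and 113, and was within 2-fold at transplant, at 346 and 293. Bcl6, the factor that directs follicular helper cells, stood at 284 in CD4 and 217 in CD8 cells, a log2 ratio of 0.37. Of 8 measured type 2 helper genes 4 were higher in CD4 cells, namely Ccr4, Maf, Il10 and Ccr8 (list median 1.25), while Gata3, the factor that directs this subset, stood at 1231 and 639, a log2 ratio of 0.93. Of 7 measured Th17 genes 2 were higher in CD4 cells, Il21 and Ahr, and the list median was 0.09. Of 13 measured Th1 genes, Il12rb2 was higher in CD4 cells and Havcr2 in CD8 cells, 5 lay above 0 and the median was -0.21.

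Of 19 measured regulatory T cell genes, 7 were higher in CD4 cells and 1 in CD8 cells after transplant (median log2 ratio 0.81), against 12 and 1 at transplant (1.53). Shares over all genes were 2.42% and 0.956% after and 4.92% and 1.48% at transplant. Foxp3, the factor that defines regulatory T cells, stood at 141 in CD4 and 74.1 in CD8 cells after transplant, and at 305 and 20.8 at transplant. The log2 ratio of Foxp3 was 0.81 after and 3.17 at transplant, a difference of -2.36 (counting interval -2.88 to -1.83). Members called higher in CD4 cells after transplant included Ebi3, Folr4, Tnfrsf4 and Il10, of which the receptor Tnfrsf4 is also carried by activated T cells. Folr4, the gene for folate receptor 4, kept its ratio, at 916 and 151 after and 1990.0 and 345 at transplant.

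The lineages also differed in costimulatory and inhibitory receptors, with members on each side. Of 23 measured genes of TNF receptor and CD28 family costimulation, 10 were higher in CD4 and 2 in CD8 cells after transplant, against 7 and 1 at transplant. For this and the inhibitory list, shares over all genes were 2.42% and 0.956% after and 4.92% and 1.48% at transplant. Tnfrsf4, the OX40 gene, stood at 3110.2 in CD4 and 650.2 in CD8 cells, a ratio of 4.78 (4.34 to 5.28), while the gene of its ligand, Tnfsf4, stood at 88.5 and 267. Tnfrsf9, the 4-1BB gene, stood at 1552 in CD4 and 3348 in CD8 cells and was within 2-fold at transplant, at 199 and 192. Of 25 measured inhibitory receptor and exhaustion genes, 6 were higher in CD4 and 5 in CD8 cells after transplant (median 0.18), whereas 13 and 2 were so at transplant (median 1.04). Ctla4, an inhibitory receptor that competes with CD28, was on the CD4 side, at 3618 and 1666, and so was Btla, at 2739 and 1193. Havcr2, the Tim-3 gene, was on the CD8 side at 1773 and 3858, as was Cd160 at 987 and 2855. Pdcd1, the PD-1 gene, stood at 6000.4 in CD4 and 8630.5 in CD8 cells, a log2 ratio of -0.52 after transplant against 2.13 at transplant. Lag3 went the same way, at 3211 and 5471 after and 119.5 and 37.2 at transplant.

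**Figure D2:**
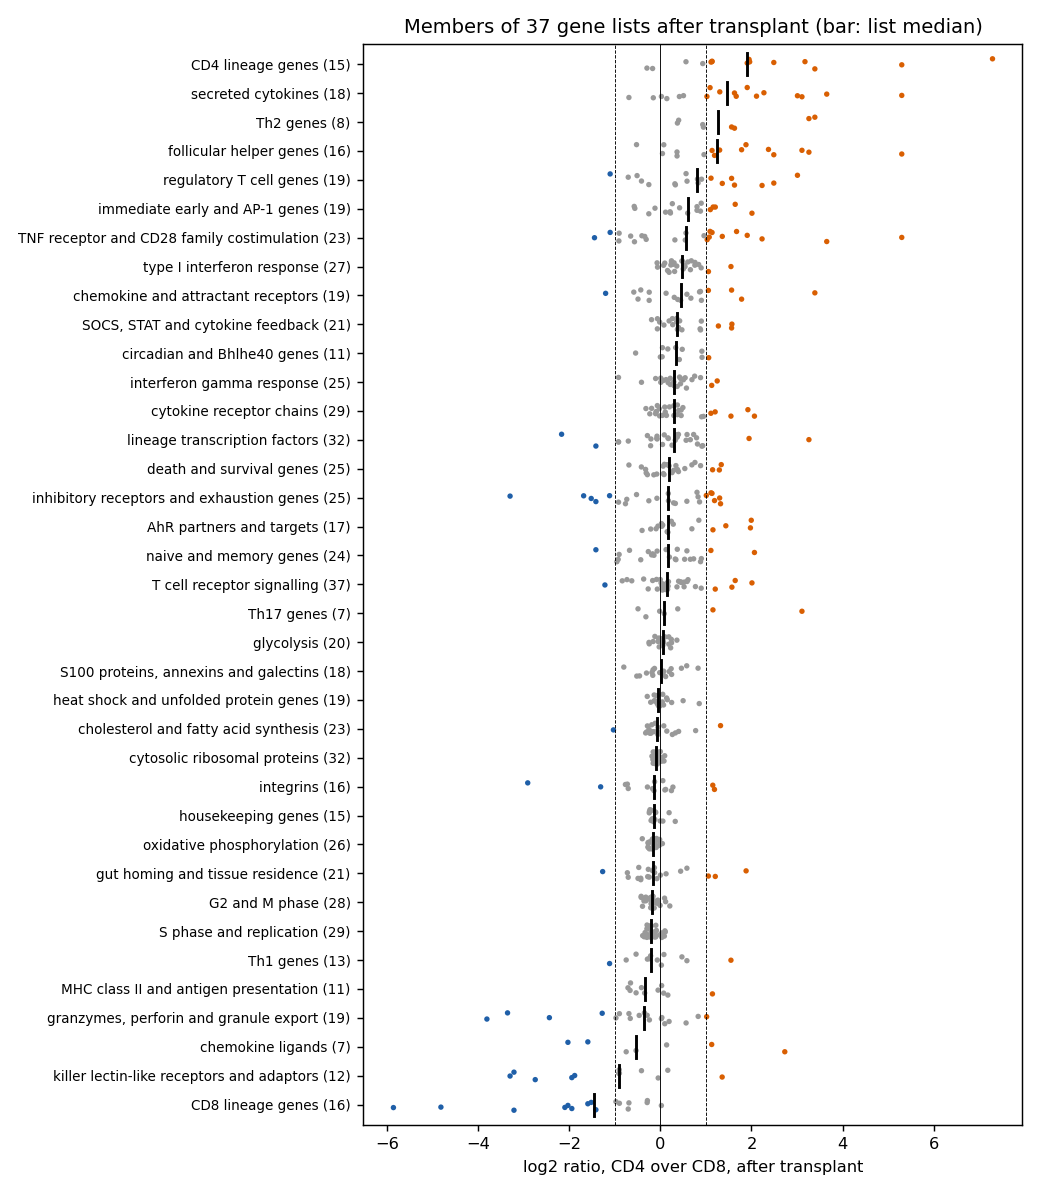
Each point is the log2 ratio, CD4 over CD8 after transplant (x axis), of a measured member of the gene list named on the y axis, with the number measured in brackets. The bar is the list median, orange and blue points are at least 2-fold higher in CD4 and CD8 cells, and medians run from 1.91 for CD4 lineage to -1.47 for CD8 lineage genes.

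The cytokine receptor genes that passed 2-fold were on the CD4 side. Of 29 measured chains 5 were higher in CD4 and 0 in CD8 cells, with a median of 0.29. Over all genes 2.42% and 0.956% were called, so the 0 on the CD8 side is near that share. Il6ra, a receptor chain for interleukin 6, was at 301 in CD4 and 60.6 in CD8 cells after transplant, a ratio of 4.96 (3.60 to 6.98), far below its values of 4809 and 2842 at transplant. Il7r, the survival receptor of resting T cells, was also lower in both lineages after transplant, at 2799 and 1289 against 10224 and 11305. Il12rb2, the inducible receptor chain for interleukin 12, was at 2225 and 750.4, and Il1r2, a decoy receptor for interleukin 1, at 1446 and 371. Both were higher after than at transplant in both lineages, where Il12rb2 was at 118 and 30.6 and Il1r2 at 37.2 and 6.61. The feedback genes Cish and Socs2, which are induced by cytokine signals through Stat5, were on the same side, at 1487 and 491 for Cish and 316 and 97.3 for Socs2.

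Several genes with the largest CD4 ratios lie outside the helper lists. Gcg, the proglucagon gene known from gut and pancreatic endocrine cells, stood at 696 in CD4 and 5.64 in CD8 cells after transplant, and at 0.664 and 0 at transplant. The plain ratio of Gcg was 123 (48.0 to 454), with only a few reads on the CD8 side. Wisp1, a secreted matrix-associated protein gene, stood at 295 and 7.05 after transplant, and at 0.664 and 0 before. Dclk1, a microtubule-associated kinase gene, stood at 959 and 121 after and 1.33 and 0 at transplant, so that the CD8 value also exceeded its earlier level. Igfbp7, a secreted binding protein gene, stood at 635 and 49.4, Scin, an actin-severing protein gene, at 288 and 14.1, and the chemokine gene Ccl1 at 429.5 and 52.2. In the RefSeq annotation (GRCm38.p6) Igfbp7 overlaps Polr2b and Ebi3 overlaps Zfp119b, and whether counting used strand is not given in the sources used here. Polr2b was at 1899 in CD4 and 1984 in CD8 cells and Zfp119b at 91.2 and 46.1 after transplant.

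**Figure D3:**
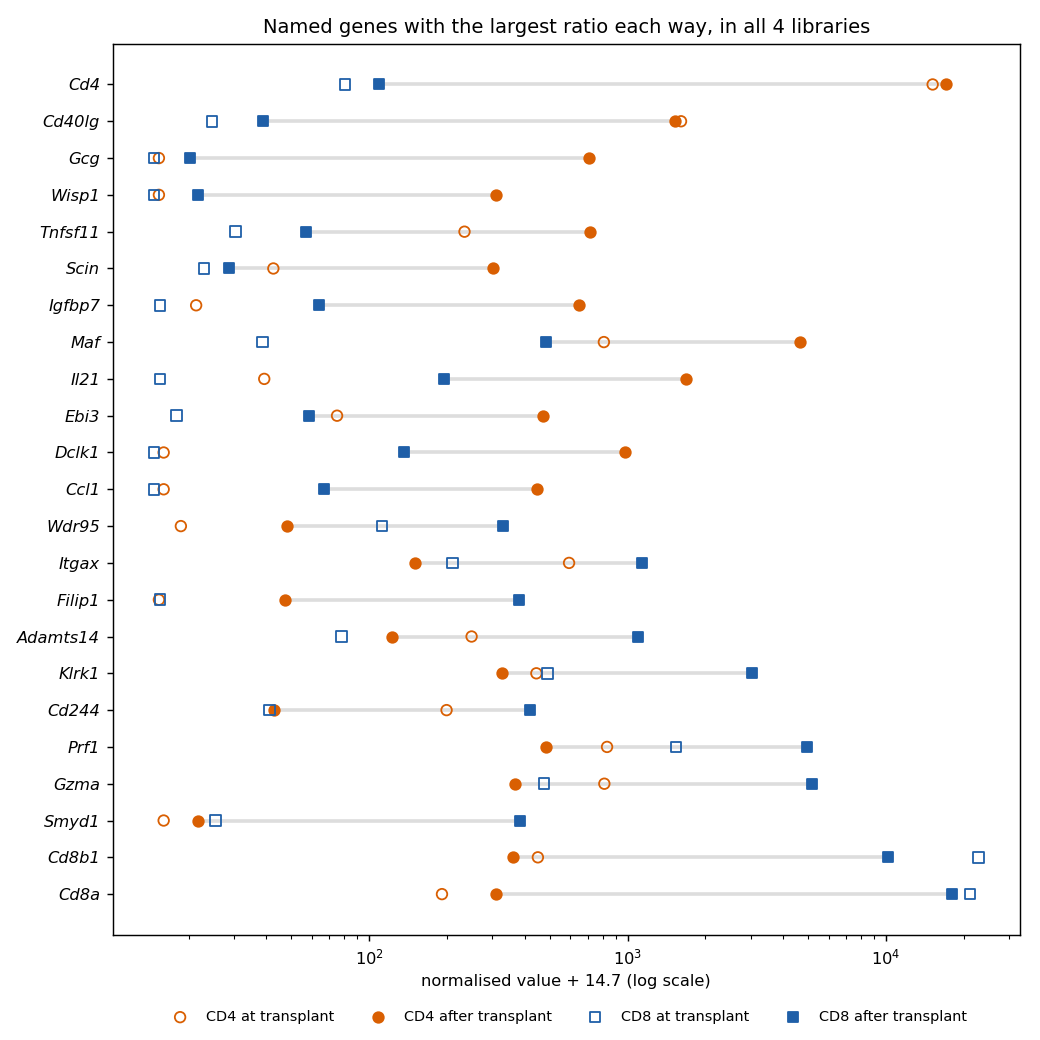
The value plus 14.7 (x axis, log scale) in each of the 4 libraries is drawn for named genes with the largest ratio after transplant on each side (y axis). Filled circles and squares are CD4 and CD8 after transplant, open ones are at transplant, and a grey line joins the libraries after transplant, as from 94.5 to 17092 for Cd4 before the addition.

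CD8 cells after transplant were marked by the core of the killing machinery and not by all of its genes. Of 19 measured granzyme, perforin and granule export genes, 4 were higher in CD8 cells and 1 in CD4 cells after transplant, with a median of -0.35. Over all genes 0.956% were higher in CD8 and 2.42% in CD4 cells. Prf1, the gene for pore-forming perforin, stood at 468 in CD4 and 4925 in CD8 cells, a ratio of 10.5 (9.60 to 11.5) in favour of CD8, and at 818 and 1522 at transplant. Gzma, a granule protease gene, stood at 353 and 5139.6 after transplant, a ratio of 14.5 (13.1 to 16.2), but at 798 and 461 at transplant, when the CD4 value was the larger. Gzmb, the main apoptosis-inducing granzyme gene, stood at 5026 and 27271, a ratio of 5.43 (5.27 to 5.59), against 179 and 250.2 at transplant. Prf1 and Gzma thus had lower CD4 values after than at transplant, whereas Gzmb was far higher after transplant in CD4 cells as well.

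The remaining granule genes were closer between lineages. Gzmk was also higher in CD8 cells, at 835 and 2045, and Gzmc was the member higher in CD4 cells, at 194 and 88.3. Gzmc has near-identical neighbours among the granzyme genes, and the authors' estimation could divide reads unevenly among them, so the value of Gzmc is uncertain. The estimated reads of Gzmb were whole numbers in all 4 libraries. Nkg7, a granule membrane protein gene, stood at 6089.9 in CD4 and 11371 in CD8 cells after transplant, a log2 ratio of -0.90, and at -3.44 at transplant. Fasl, the death ligand gene, stood at 484 and 789.8, a log2 ratio of -0.69, after 227 and 52.9 at transplant. Serpinb9, an inhibitor of granzyme B, stood at 4007 and 6343, within 2-fold like Fasl and Nkg7. Gzma overlaps Cdc20b in RefSeq (GRCm38.p6), a gene with no value here.

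Receptors shared with natural killer cells were on the CD8 side too. Of 12 measured killer lectin-like receptor and adaptor genes, 5 were higher in CD8 cells and 1 in CD4 cells (median -0.91), whereas at transplant 1 was higher in CD8 and 5 in CD4 cells (median 0.10). Over all genes the CD8 and CD4 shares were 0.956% and 2.42% after and 1.48% and 4.92% at transplant. Klrk1, the NKG2D gene for an activating receptor of stress ligands, stood at 312 in CD4 and 3017 in CD8 cells after transplant, a ratio of 9.67 (8.64 to 10.8), and at 429 and 476 at transplant. Klrc1, the NKG2A gene for an inhibitory receptor, stood at 719 and 4912 after and 205 and 335 at transplant, and its partner chain Klrd1 at 384 and 1519 after and 363 and 2156 at transplant. The CD8 ratio was present for Klrd1 at both times, but for Klrk1 and Klrc1 only after transplant did it pass 2-fold. Cd244, the 2B4 receptor gene, stood at 28.1 in CD4 and 406 in CD8 cells after transplant and at 185 and 26.4 at transplant. Klr genes are alike in sequence, so division of reads among them is uncertain, as for Klrc1, whose estimated reads were not whole numbers. Those of Klrk1 and Klrd1 were whole numbers in all 4 libraries.

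The list of natural killer cell markers went the way of these genes, but 6 of its 7 measured members stand in other lists too. The part of natural killer cells in the result was not tested. Of 7 measured natural killer markers, 3 were higher in CD8 cells and 1 in CD4 cells after transplant, and 10 of the 13 in the table are also in T cell lists. The 3 markers in no T cell list summed to 190.2 in CD4 and 227 in CD8 cells after transplant, and to 422 and 53.7 at transplant. Of the defining markers, Ncr1 was at 0 in CD4 cells and 2.82 (2 reads) in CD8 cells after transplant, against 172 and 9.91 at transplant, and Klra8 was at 0 in both libraries after transplant. Klrb1c, the NK1.1 gene, stood at 86.2 and 175, and Itga2 at 186 and 73.3.

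The promoter sequences of some genes with large ratios were read from RefSeq (GRCm38.p6) as the 250 bases before to 50 after each start. They show killing genes and CD8 surface genes beside a CD4 cytokine gene. Capitals mark the letters of 3 motifs, read on either strand, so that a match on the other strand appears as its reverse complement. The motif of the RUNX factors was searched as TGTGGT. For the T-box factors, which include the products of Eomes and Tbx21, the letters were AGGTGT. The motif of the NFAT factors, which act downstream of the T cell receptor, was searched as GGAAAA. The sequences are written from 5′ to 3′ in the direction of the gene.
Gzma, chr13:113100932-113101231, minus strand: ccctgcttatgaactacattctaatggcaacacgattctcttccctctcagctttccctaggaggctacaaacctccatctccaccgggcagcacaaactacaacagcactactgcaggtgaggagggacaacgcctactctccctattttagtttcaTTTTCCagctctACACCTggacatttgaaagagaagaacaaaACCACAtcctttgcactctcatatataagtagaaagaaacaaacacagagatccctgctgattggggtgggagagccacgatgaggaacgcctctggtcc
Prf1, chr10:61297586-61297885, plus strand: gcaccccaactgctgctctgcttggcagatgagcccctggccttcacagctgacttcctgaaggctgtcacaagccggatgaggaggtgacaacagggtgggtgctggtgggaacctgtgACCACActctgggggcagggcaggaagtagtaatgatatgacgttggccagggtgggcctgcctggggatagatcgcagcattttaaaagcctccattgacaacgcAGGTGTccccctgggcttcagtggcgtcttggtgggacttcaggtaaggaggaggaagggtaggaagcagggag
Klrk1, chr6:129623815-129624114, minus strand: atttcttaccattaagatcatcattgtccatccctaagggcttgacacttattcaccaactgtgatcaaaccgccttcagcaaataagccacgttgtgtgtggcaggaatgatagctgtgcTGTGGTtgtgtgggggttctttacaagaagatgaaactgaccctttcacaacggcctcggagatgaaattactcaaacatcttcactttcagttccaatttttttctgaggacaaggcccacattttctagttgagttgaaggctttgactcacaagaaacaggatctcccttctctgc
Itgax, chr7:128129300-128129599, plus strand: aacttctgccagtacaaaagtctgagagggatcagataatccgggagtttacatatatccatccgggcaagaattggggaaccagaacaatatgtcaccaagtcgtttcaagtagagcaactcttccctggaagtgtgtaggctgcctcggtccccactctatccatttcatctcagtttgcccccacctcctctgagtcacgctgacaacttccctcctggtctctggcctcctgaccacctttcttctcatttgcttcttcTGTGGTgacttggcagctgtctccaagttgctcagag
Il21, chr3:37232587-37232886, minus strand: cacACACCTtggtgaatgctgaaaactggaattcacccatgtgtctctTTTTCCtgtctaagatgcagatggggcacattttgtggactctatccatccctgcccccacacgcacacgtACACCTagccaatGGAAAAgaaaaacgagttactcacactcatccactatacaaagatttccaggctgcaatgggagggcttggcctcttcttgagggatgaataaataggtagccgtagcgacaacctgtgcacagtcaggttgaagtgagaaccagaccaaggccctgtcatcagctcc

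RUNX letters stood in each of the 4 promoters shown from the CD8 side and in none of the Il21 window, which held T-box and NFAT letters. The genes shown were picked by name and not by a rule. All 4 from the CD8 side are among the 7 of 10 below that held RUNX letters, so they do not stand for their side. Gzma held all 3 motifs. Over the 12 genes with the largest CD8 ratio, 10 had a promoter in the table and 7 of these (70%) held RUNX letters, among them Filip1, Gzma, Itgax, Klrk1, Prf1 and Smyd1. Over the 12 with the largest CD4 ratio, 8 had a promoter and 1 (12.5%), Dclk1, held them. Among all genes called, RUNX letters stood in 28 of 77 (36.4%) on the CD8 side and in 32 of 176 (18.2%) on the CD4 side. They stood in 1210 of 8004 measured genes (15.1%) and in 18.9% of all 27025 genes with a promoter in the table. T-box letters stood in 18.2% and 20.5% of the called CD8 and CD4 genes, 12.6% of measured genes and 15.7% of all genes. For NFAT letters these shares were 27.3, 23.9, 23.6 and 26.1%, so the CD4 share was below that of all genes. Counted over the 32851 promoters in place of genes, the RUNX, T-box and NFAT letters stood in 16.8, 13.7 and 23.4%. The T-box and RUNX letters can share bases and did so in 150 promoters. A match of 6 letters is a description of the sequence and not a site, and Runx3 itself was within 2-fold between the libraries.

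Further genes with large CD8 ratios had varied known roles. Itgax, the CD11c integrin gene that activated CD8 cells can carry, stood at 136 in CD4 and 1119 in CD8 cells after transplant, and at 579 and 195 at transplant. Of 8 measured dendritic cell markers, among them Itgax, 1 was higher in CD4 and 1 in CD8 cells after transplant. The 9 dendritic markers in no T cell list summed to 1671 and 2536 after transplant, and their part in the Itgax value was not tested. Adamts14, a matrix protease gene next to Prf1 in the RefSeq order of coding genes, stood at 108 and 1080.4. Gpr56, an adhesion receptor gene, stood at 139 and 834. In human blood it is carried by cytotoxic lymphocytes. Smyd1, a histone methyltransferase gene known from heart and skeletal muscle, stood at 7.01 in CD4 and 368 in CD8 cells after transplant and at 1.33 and 10.7 at transplant, a ratio of 52.5 (26.2 to 123) on few CD4 reads. Filip1, which encodes a filamin-binding protein, stood at 32.4 and 367 after transplant, and Wdr95 at 33.3 and 316.

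Chemokine genes split between the lineages. Of 7 measured ligands 2 were higher in CD4 cells, Ccl1 and Cxcl10, and 2 in CD8 cells, Xcl1 and Ccl5. Ccl5, the RANTES gene stored by cytotoxic cells, stood at 4455 in CD4 and 13461 in CD8 cells after transplant and at 1252 and 4779 at transplant. Ccl3 and Ccl4, which encode inflammatory chemokines, were within 2-fold, at 1753 and 2959 and at 1403 and 2038. Of 19 measured attractant receptors 4 were higher in CD4 cells and 1 in CD8 cells. For these lists and the integrins, shares over all genes were 2.42% and 0.956%. Ccr4, a receptor for skin-associated chemokines, stood at 169 in CD4 and 2.82 (2 reads) in CD8 cells, a ratio of 60.0 (16.4 to 499). Cx3cr1, a receptor of cytotoxic effector cells, stood at 456 and 1068. Cxcr6 and Cxcr3, receptors for entry into inflamed tissue, were within 2-fold, at 5854 and 7891 and at 3381 and 2252. Among 16 measured integrins, Itga2 and Itgb1 were higher in CD4 cells, with Itgb1 at 23293 and 10482.

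In the signalling, immediate early and AhR lists most called members were on the CD4 side, where 2.42% of all genes were called. Of 37 measured T cell receptor signalling genes 4 were higher in CD4 and 1 in CD8 cells, and of 19 immediate early genes 5 and 0. Egr3, induced by T cell receptor signals, was at 681 in CD4 and 158 in CD8 cells after transplant and at 548 and 424 at transplant. Cd69, an early activation marker that keeps cells in tissue, was at 976 and 415, where it had been within 2-fold at transplant. Nr4a2, an orphan nuclear receptor gene induced by the same signals, was on the CD8 side, at 387 and 1275. Of 17 measured AhR partners and targets, 4 were higher in CD4 and 0 in CD8 cells. Ahr, the aryl hydrocarbon receptor gene, stood at 247 and 103 after transplant, a ratio of 2.40 (1.85 to 3.15) whose interval crosses 2, and at 106 and 37.2 at transplant. Arnt2, from a family of AhR partners, stood at 304 and 66.3 after and 9.30 and 0.826 at transplant, while Arnt was within 2-fold at 955 and 805. Cyp1a1, the classical AhR target, stood at 1.75 and 5.64, near the floor of 3 reads (2.63 and 4.23), and Tiparp, another target, at 356 and 289.6.

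No member of the cell division and basal metabolism lists passed 2-fold, which is near the share over all genes, 2.42% higher in CD4 and 0.956% higher in CD8 cells. None of 29 measured S phase genes, 28 G2 and M phase genes, 20 glycolysis genes, 26 oxidative phosphorylation genes or 32 cytosolic ribosomal protein genes passed 2-fold either way after transplant, with medians of -0.20, -0.19, 0.05, -0.15 and -0.09. Mki67, a marker of cycling cells, stood at 11115 in CD4 and 9623 in CD8 cells after transplant and at 752 and 536 at transplant. Above 0 lay 3 of the 28 G2 and M phase genes and 5 of the 29 S phase genes, and likewise 2 of 26 oxidative phosphorylation, 5 of 32 ribosomal protein and 3 of 15 housekeeping genes, against 5490 of all 9937 genes. The housekeeping list had a median of -0.15 and no member beyond 2-fold. In the opposite direction 25 of 27 measured type I interferon response genes lay above 0 (median 0.47), of which 2 passed 2-fold, Ifi27l2a at 2890.3 and 977 and Ifih1, a viral RNA sensor gene, at 2127 and 1016. Ccr7, which brings T cells into lymph nodes, was within 2-fold after transplant, at 355 in CD4 and 183 in CD8 cells. Both values were far below those at transplant, 7523 and 5753.

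The ratio after transplant was in part that of the cells at transplant. Of the 240 genes higher in CD4 cells after transplant, 92 (38.3%) were already so at transplant, against 4.92% of all genes. A further 145 (60.4%) had been within 2-fold and 3 had been higher in CD8 cells. Of the 95 higher in CD8 cells, 35 (36.8%) were already so, against 1.48% of all genes. Another 48 (50.5%) had been within 2-fold and 12 had been higher in CD4 cells. Conversely 92 of the 489 CD4-side genes at transplant (18.8%) were called on the same side after transplant, against 2.42% of all genes. The same held for 35 of the 147 CD8-side genes (23.8%), against 0.956%. Genes just under the 2-fold line count as within it. Across the 9937 genes the log2 ratios at and after transplant had a Pearson correlation of 0.40 and a Spearman correlation of 0.35, where no library is shared but 1 lane code stands in the titles of all 4. The log2 ratio was at least 1 higher after than at transplant for 202 genes (2.03%) and at least 1 lower for 399 (4.02%). The split depended on scaling, with 257 higher and 344 lower under a trimmed mean and 265 and 338 under the median of ratios.

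**Figure D4:**
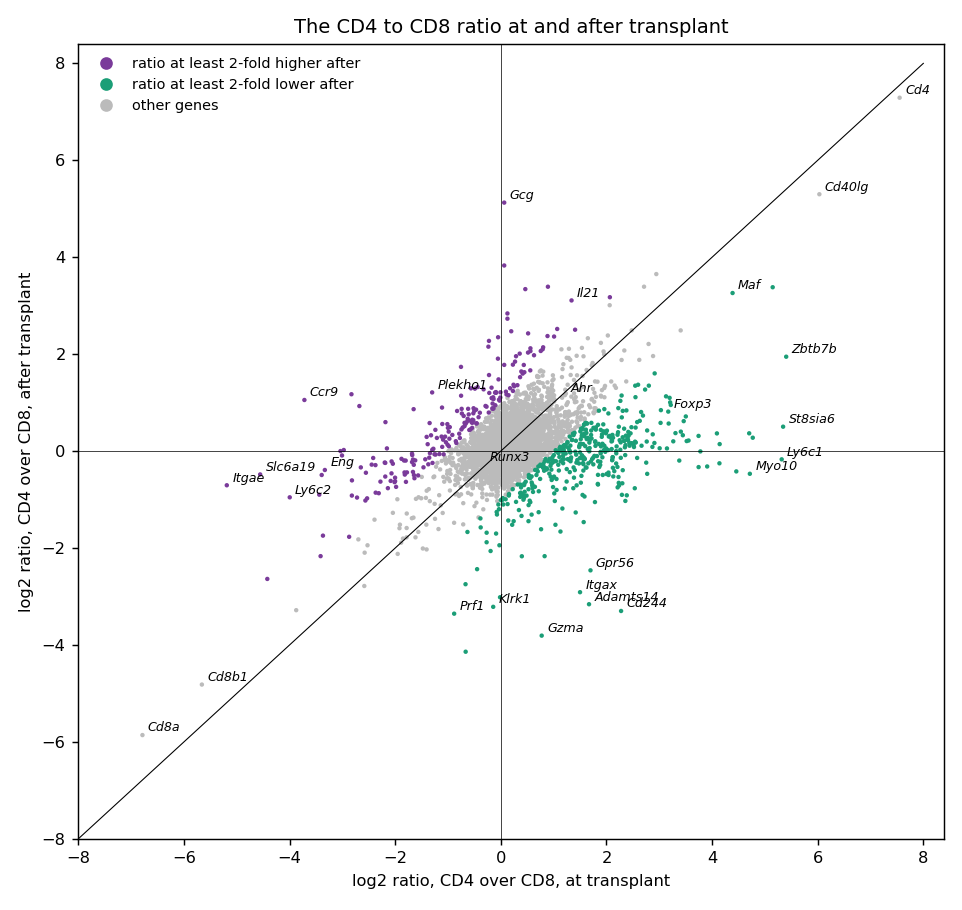
Each point is 1 of 9937 genes, with its log2 ratio, CD4 over CD8, at transplant (x axis) and after transplant (y axis), and the line marks equal ratios. Cd4 and Cd8a keep their ends of the line, Gcg rises from 0.06 to 5.13, and Cd244 goes from 2.28 to -3.30.

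Ccr9 and Itgae, genes of gut homing and tissue retention, had marked CD8 cells at transplant and lost that ratio. The gut homing and tissue residence list did not move with them. Of its 21 measured genes, 3 were higher in CD4 and 4 in CD8 cells at transplant, and 3 and 1 after transplant. The list median was 0.04 at and -0.17 after transplant, and the log2 ratio of its member Gcnt1 went from 1.42 to -1.27. Ccr9, which guides T cells to the small intestine, stood at 233 in CD4 and 3252 in CD8 cells at transplant and at 119 and 49.8 after transplant, so its log2 ratio went from -3.72 to 1.05. Itgae, the CD103 integrin gene that binds epithelium, stood at 56.4 and 2581 at and 92.9 and 161 after transplant, with log2 ratios of -5.19 and -0.71. The CD8 values of both were far below those at transplant. Itgae overlaps Haspin in RefSeq (GRCm38.p6), which stood at 539 and 550.1 after transplant. Itgb7, the partner chain of Itgae, was within 2-fold at 5915 and 6667. Slc6a19, an amino acid transporter gene, stood at 12.6 and 628 at and 0.877 and 7.05 after transplant, and Eng, a TGF-beta coreceptor gene, at 53.9 and 676 at and 51.7 and 72.4 after transplant.

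Other lineage-biased genes at transplant converged from the CD4 side. Ly6c1 stood at 1898 in CD4 and 33.2 in CD8 cells at transplant and at 834 and 940.5 after transplant, while its near-identical copy Ly6c2 stood at 475 and 7813 at and 2219.7 and 4315 after transplant. The division of reads between the 2 Ly6c genes is uncertain. Myo10, an unconventional myosin gene, stood at 653 and 10.7 at and 43.8 and 66.3 after transplant. St8sia6, a sialyltransferase gene, stood at 1220.5 and 15.7 at transplant, and at 6.14 in CD4 and 0 in CD8 cells after transplant.

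Macrophage, monocyte and neutrophil markers were uneven between the libraries at transplant and within 2-fold after it, except Cd68, while markers of some other cells stayed uneven. All 17 measured macrophage and monocyte markers were higher in the CD4 library at transplant (median 3.55), whereas after transplant 0 were higher in CD4 and 1, Cd68, in CD8 cells (median 0.14). The summed value of the 25 in the table was 17912 in CD4 and 4067 in CD8 cells at transplant, and 14184 and 12500 after transplant. Of 15 neutrophil markers 13 were higher in CD4 cells at transplant and 0 after transplant, when the 14 in no T cell list summed to 35119 and 30210. Erythroid markers summed to 8693 and 7623 after transplant with 0 of 8 called. The 16 B cell markers summed to 450.2 and 385, with Ms4a1 at 2.63 and 0. Of the 3 B cell markers measured (median -0.87), Cd72 was higher in CD8 cells after transplant, at 28.5 and 134, and 0 were higher in CD4 cells. The median was -0.65 over 8 dendritic, -0.91 over 7 natural killer and 0.93 over 5 innate lymphoid and gamma delta T cell markers, of which Cd163l1 was higher in CD4 cells, at 155 and 60.6. Plasma cell and mast cell markers had medians of 0.23 and -0.19 with 0 called. Among defining markers after transplant, Csf1r stood at 114 in CD4 and 95.9 in CD8 cells, Lyz2 at 2685 and 2464 and S100a9 at 11136 and 9220.0. Without the genes of all these lists 237 genes were higher in CD4 and 89 in CD8 cells after transplant, and 445 and 141 at transplant. The part of these cells in the differences between the libraries at and after transplant was otherwise not tested.

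**Figure D5:**
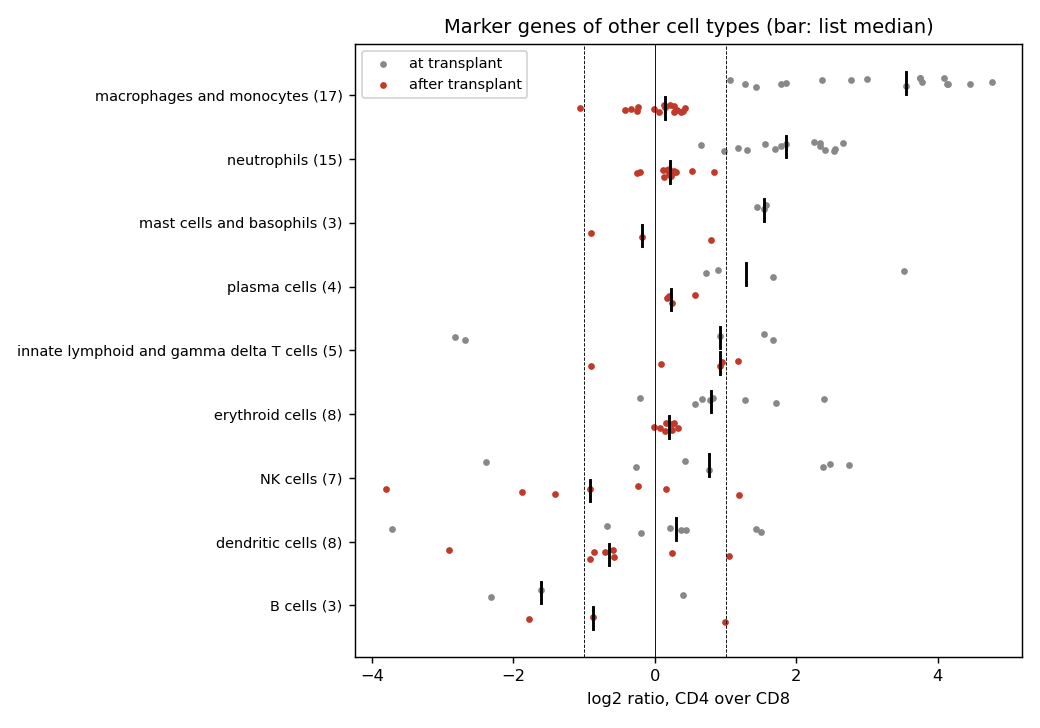
Each point is the log2 ratio, CD4 over CD8 (x axis), of a measured marker of the cell type on the y axis, at transplant (grey) and after transplant (red), with the list median as a bar and the number measured in brackets. Macrophage and monocyte medians are 3.55 at and 0.14 after transplant.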

How the data were processed

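RNA-seq libraries of CD4 and CD8 splenic T cells, 1 each at and after transplant, were grouped by the labels. The deposited table holds signal values, that is, per-gene read estimates brought by the authors to a common upper quartile. RSEM 1.1.13, SAMtools 1.2 and genome build mm9 are named in the submitters' processing notes; the aligner, annotation, strand setting and scaling step are not given in the sources used here. Estimated reads were recovered by dividing by the value of 1 read in each library, 0.877 for CD4 and 1.41 for CD8 after transplant. That value was the commonest one above 0, refined on its whole multiples. Of the table's columns 2 held no header and no values.

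Log2 ratios used a pseudocount of 14.7, 1 ppm of the mean library total, and genes with a mean of at least 73, as the members were defined. The analysis used Python 3.11.15, numpy 2.4.6, pandas 2.3.3, scipy 1.17.1 and matplotlib 3.10.9, and the scripts were tested on simulated data. The difference between log2 ratios after and at transplant has a 95% interval from counting error by the delta method. With 1 library a group no test between groups was made.

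Genes were named as the 12 largest ratios each way, the 6 largest differences from the ratio at transplant each way, up to 4 each way with opposite ratios, up to 4 members of each of 48 lists (3 by level for other cells), and the sort and lineage genes. Further list members were named, as descriptions, after their values were seen. The members, lists and rules were chosen with earlier results of these data known. The 48 lists held 827 genes; the table has 818 of them, and 658 passed the minimum level. RefSeq promoters were matched by gene identifier. Some items are not reported here.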

Additional observations from a re-analysis of the deposited data

Results flagged for a closer look

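For 9 named genes the CD4 to CD8 ratio was at least 2-fold one way at transplant and at least 2-fold the other way after transplant, and none of these differences was tested. The values below are the log2 ratio after minus that at transplant, CD4 over CD8.

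Toward CD8 cells, the receptor gene Cd244 had a difference of -5.58, the protease gene Adamts14 of -4.83, the integrin gene Itgax of -4.41 and the adhesion receptor gene Gpr56 of -4.16. Cd68, a lysosomal protein gene of macrophages, had -2.83, with 189 in CD4 and 44.6 in CD8 cells at transplant and 115 and 254 after transplant. Gcnt1, which encodes an enzyme of selectin ligand synthesis, had -2.68, at 86.3 and 23.1 at and 234 and 584 after transplant. At transplant all 17 measured macrophage and monocyte markers were higher in the CD4 library (median 3.55). Natural killer markers in no T cell list then summed to 422 in CD4 and 53.7 in CD8 cells. The part of such cells in these differences was not tested.

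Toward CD4 cells, Ccr9 had a difference of 4.77. Cd163l1, a scavenger receptor gene of gamma delta T cells, had 4.0, at 19.9 and 231 at and 155 and 60.6 after transplant. Its estimated reads were whole numbers in all 4 libraries, so no division of reads with a similar gene showed. Plekho1 had 2.51, at 311 and 787 at and 326 and 133 after transplant. For Ccr9, Cd163l1, Plekho1 and Cd68 the counting interval of the ratio after transplant crossed 2-fold, so these 4 were not called after transplant when the whole interval had to lie beyond 2-fold.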

How the results depend on the processing

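No paired analysis was possible because each group held 1 library. The 240 genes higher in CD4 cells became 158 with a pseudocount 4 times larger, 375 with no filter on low values and 151 where the counting interval had to lie wholly beyond 2-fold, and the 95 higher in CD8 cells became 188 with no filter. The 202 genes whose ratio was at least 1 higher after transplant became 312 with no filter, and the 399 at least 1 lower became 847 with no filter and 261 with a mean of at least 10 ppm. Under 4 other scalings the counts were 218 to 240 and 95 to 102, and no called named gene changed direction. Of 86 named genes called, 74 were called with the larger pseudocount and 73 by the counting interval, and those lost in both cases included Ahr, Ccr9, Cxcl10, Cd68 and Cd163l1, while Plekho1 was lost by the counting interval. Across those 4 scalings 202 to 265 genes had a ratio at least 1 higher after transplant and 338 to 399 at least 1 lower. Scaling by a trimmed mean or by the median of ratios moved the median log2 ratio at transplant from 0.14 to -0.02 and -0.04. With 1 library a group, spread between animals was not measured, and the CD8 library after transplant was the shallowest of the 4.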

Other observations

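Genes outside the lists, chosen after their values were seen, also differed after transplant. On the CD4 side Podnl1, a matrix protein gene, stood at 5424 in CD4 and 996 in CD8 cells, against 373 and 256 at transplant. Serpina3f, a serine protease inhibitor gene, stood at 2954 and 554, against 58.5 and 3.27. Tiam1, an exchange factor gene for Rac, stood at 2682 and 625, and Asb2, a ubiquitin ligase subunit gene, at 1423 and 241. Rxra, a retinoid nuclear receptor gene, stood at 630.3 and 102 after transplant and at 458 and 397 at transplant. St6gal1, a sialyltransferase gene, stood at 1997 and 467. On the CD8 side Bend4 stood at 50.0 in CD4 and 388 in CD8 cells, and at 61.8 and 1624 at transplant. Spry2, a brake on growth factor signalling, stood at 119 and 588. Cd7 and Nedd4 kept their ratios, at 812 and 2874 for Cd7 and 475 and 1669 for Nedd4.

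Called genes were also placed in the RefSeq order of coding genes (GRCm38.p6). Of 335 called genes 328 were placed, and 64 lay in 30 runs of called genes with at most 1 other coding gene between them. In 24 of these runs all genes were higher on the same side, as for Gzma and Gzmk, for Prf1 and Adamts14, for Ctla4 and Icos, and for Tnfrsf4 and Tnfrsf18. In the others the sides differed, as for Cx3cr1, with a log2 ratio of -1.20, and Ccr8, with 1.56. No expected number of runs was computed.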
